A study of Mus musculus with 9 samples.

Results

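The 8 genes described here make gangliosides and polysialic acid or carry polysialic acid, and all 8 were found among 19938 genes with a probe set annotated to exactly 1 gene. They are the sialyltransferase genes St8sia1, St8sia2, St8sia3, St8sia4, St8sia5 and St3gal5, the glycosyltransferase gene B4galnt1, and Ncam1, the neural cell adhesion molecule. They were picked by symbol. The highest mean over all 9 arrays was to decide between probe sets of a gene, but each gene had 1, so no measured value entered that choice. The list was drawn up with results of these arrays known, and the low level of St8sia5 in the tumours was among them. The values of St8sia5 are therefore given as a description with no p-value.

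RNA of mice at postnatal day 13 was measured on Affymetrix Mouse Gene 1.0 ST arrays, 1 array a sample. There were 3 medulloblastomas (a cerebellar tumour) of the genotype labelled Ptch1KO, 3 cerebella labelled SufuKO and 3 cerebella labelled wildtype. Ptch1 encodes the Hedgehog receptor that keeps the pathway off, and Sufu encodes an inhibitor of its Gli transcription factors. The labels name no Cre driver, strain or sex, do not say whether a knockout reaches every cell, and do not say that samples of a group are separate animals, so the p-values speak of the spread among these arrays only, part of which may be technical.

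Gangliosides are lipids of the cell surface, built on ceramide by adding a glucose, a galactose and then sialic acids and further sugars, and they are abundant in neurons. St3gal5 makes the simplest ganglioside, St8sia1 adds the next sialic acid, B4galnt1 extends the sugar chain and St8sia5 adds sialic acids to the more complex products. Polysialic acid is a long chain of sialic acids that St8sia2 and St8sia4 build, mainly on Ncam1. It loosens contacts between cells, and in the developing cerebellum it is found on immature and migrating neurons. St8sia3 adds short sialic acid chains to glycoproteins and glycolipids.

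St8sia2 and St8sia4 share an enzymatic task, and their RNA levels are set side by side here, so the stretches of 250 bases before their transcription starts are shown. They come from RefSeq's GRCm38.p6 assembly, whose promoter table held 4 of the 8 genes. The first stretch listed for each gene was taken, and any other start of these genes is not described here. The St8sia2 stretch lies at chr7:74013683-74013932 and the St8sia4 stretch at chr1:95667595-95667844, both on the minus strand and written 5′ to 3′ toward the start. Capitals mark GGGCGG, the GC box, and the 7-letter CCACCCA, the end of the Gli consensus GACCACCCA, all searched on both strands.
St8sia2: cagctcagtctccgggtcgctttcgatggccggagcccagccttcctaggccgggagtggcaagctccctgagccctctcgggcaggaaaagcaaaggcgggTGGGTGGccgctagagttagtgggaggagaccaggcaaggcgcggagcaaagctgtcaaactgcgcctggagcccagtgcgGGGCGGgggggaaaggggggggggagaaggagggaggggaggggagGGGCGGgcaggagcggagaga
St8sia4: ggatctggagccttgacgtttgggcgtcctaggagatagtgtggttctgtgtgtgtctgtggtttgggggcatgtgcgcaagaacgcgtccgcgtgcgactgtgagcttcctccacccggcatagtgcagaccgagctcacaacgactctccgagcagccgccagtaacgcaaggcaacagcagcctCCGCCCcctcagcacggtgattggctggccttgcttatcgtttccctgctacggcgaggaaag

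The St8sia2 stretch held 2 GC boxes, beginning 67 and 21 bases before the start, and the St8sia4 stretch held 1, beginning 63 bases before it. The GC box occurred in 32.7% of 32851 promoter stretches of the same length. CCACCCA occurred once before St8sia2, on the opposite strand and beginning 148 bases before the start, and in 8.11% of all stretches. The full Gli consensus, present in 0.225% of all stretches, occurred in neither. GC made up 68.8% of the St8sia2 stretch and 60.4% of the St8sia4 stretch, against a median of 52.4% over all stretches. These letter matches are a description and no site of binding was measured.

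The samples were checked before the members were read. Sufu averaged 8.07 ± 0.07 in SufuKO cerebellum and 8.96 ± 0.12 in wildtype (log2 level, SD, n = 3 each). Ptch1 RNA was higher in the tumours labelled Ptch1KO, at 11.28 ± 0.14, than in wildtype, at 10.26 ± 0.01 (log2 level, SD, n = 3 each). Which part of Ptch1 was deleted is not in the labels, so this level is no check of them, and the genotype behind all directions for the tumours rests on the label. The Gli transcription factor gene Gli1 averaged 9.17 in the tumours, 7.24 in SufuKO and 7.36 in wildtype (log2 level). Gli2 averaged 8.72, 8.18 and 7.24 in the same order. Zic1, a cerebellar transcription factor, read 11.96 to 12.27 on all 9 arrays. En2, another such factor, was not even across the groups, with a mean of 9.02 in the tumours, 9.77 in SufuKO and 10.04 in wildtype. Pcp2, a Purkinje cell gene, was lower in the tumours, at 8.27 to 8.31, than in wildtype, at 10.03 to 10.15. Xist, the RNA of the inactive X chromosome, was high on tumour replicate 2, on SufuKO replicate 3 and on every wildtype array, so sex differs between the groups too. On the first principal component of all tested genes, which carried 77.5% of the variance, tumour replicate 3 lay at 26.1 and the other tumours at 41.3 and 39.9, with the wildtype arrays between -36.0 and -32.1. Levels of all 8 members lay above the 25th percentile of every array and all 8 entered the test.

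Counts over the members were taken over the 7 other than St8sia5, with limma's moderated test across 16323 genes and Benjamini-Hochberg adjustment at a threshold of 0.05. In tumours against wildtype cerebellum 6 of the 7 passed, where 46.8% of all tested genes passed. Of these, 5 were lower, a direction that 24.7% of all genes took, and 1 was higher, against 22.1% of all genes. The count rests on small differences, and without tumour replicate 2 it was 3 of 7. St8sia2 was the 1 of 7 that passed in SufuKO against wildtype, where 25.4% of all genes passed and 13% were higher. In the tumours against SufuKO cerebellum 2 of 7 passed, both lower, where 29.7% of all genes passed and 17.5% were lower, so these last counts do not stand out from all genes. The median log2 difference of the 8 was -0.24 in the tumours against wildtype, -0.13 in the tumours against SufuKO and -0.10 in SufuKO against wildtype, while that of all genes was -0.0127, -0.00793 and -0.00605. Unlike the counts, the medians of the 8 include St8sia5, whose low level was known, so they are a description only. The groups' arrays did not overlap for 6 of the 7 in tumours against wildtype (56.6% of all genes), for 3 in tumours against SufuKO (39.7%) and for 3 in SufuKO against wildtype (41%). The comparisons share arrays and are not independent of each other.

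**Figure D1:**
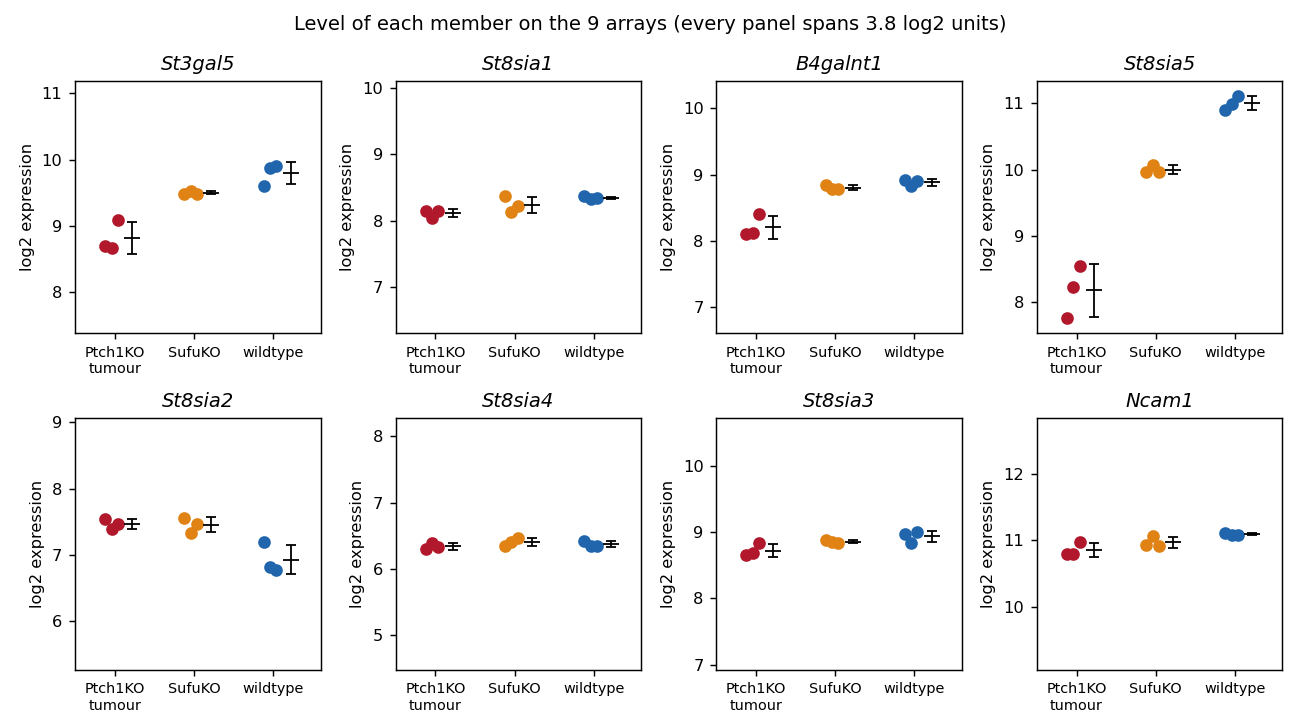
Log2 expression of each member on every array, with tumours, SufuKO and wildtype from left to right. Points are arrays, and the bar beside them is the mean with its SD (n = 3). Every panel spans the same number of log2 units. St8sia5 and St3gal5 separate all 3 groups, St3gal5 with a gap of only 0.07 between SufuKO and wildtype. St8sia2 is the member whose mutant arrays all lie above all wildtype arrays.

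Among the ganglioside enzymes, St8sia5 differed most. Its level was 7.76, 8.23 and 8.55 in the 3 tumours, 9.97, 10.08 and 9.96 in the SufuKO cerebella, and 10.90, 10.99 and 11.11 in wildtype (log2). The 3 groups stood in that order with no overlap, and the tumours were the most scattered, with an SD of 0.40 against 0.07 in SufuKO and 0.11 in wildtype. The log2 difference from wildtype was -2.82 in the tumours, a 7.08-fold lower level, and -1.0015 in SufuKO, a 2.002-fold lower level. Tumours lay 3.54-fold below SufuKO. Ordered from the most negative difference among 16323 genes, St8sia5 was number 4 in tumours against wildtype, number 5 in tumours against SufuKO and number 38 in SufuKO against wildtype. Its low level in the tumours was known when the list was made, so these places are a description and no test.

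St3gal5, whose enzyme makes the simplest ganglioside, read 8.70, 8.66 and 9.09 in the tumours, 9.49, 9.53 and 9.49 in SufuKO, and 9.61, 9.87 and 9.91 in wildtype (log2). The tumour arrays all lay below the others, and tumour replicate 3 lay nearest to them. The gene fell 1.97-fold in tumours against wildtype (log2 difference -0.98 ± 0.11, SE, limma adjusted p = 1.39e-05) and 1.61-fold against SufuKO (-0.69 ± 0.11, adjusted p = 0.000622). In SufuKO against wildtype the log2 difference was -0.29 (95% confidence interval -0.54 to -0.05, limma adjusted p = 0.0796), which did not pass although the arrays did not overlap. This value passed without wildtype replicate 1 (limma adjusted p = 0.0378) and without tumour replicate 3, which enters through the shared variance alone (adjusted p = 0.0205).

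B4galnt1, whose enzyme extends gangliosides toward the complex forms of mature brain, read 8.10, 8.11 and 8.40 in the tumours, 8.85, 8.79 and 8.78 in SufuKO, and 8.92, 8.82 and 8.91 in wildtype (log2). Here the tumours stood apart from both other groups, and SufuKO and wildtype overlapped. The fall was 1.60-fold in tumours against wildtype (log2 difference -0.68 ± 0.08, SE, limma adjusted p = 2.38e-05) and 1.52-fold against SufuKO (-0.60 ± 0.08, adjusted p = 0.000208). Its log2 difference of -0.08 in SufuKO against wildtype had a 95% confidence interval of -0.26 to 0.10 (limma adjusted p = 0.557). Unlike St8sia5, whose SufuKO arrays lay between the other groups, the order of B4galnt1 levels in SufuKO and wildtype is not settled.

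St8sia1, whose enzyme adds the sialic acid that opens the b-series of gangliosides, read 8.14, 8.04 and 8.15 in the tumours, 8.37, 8.13 and 8.22 in SufuKO, and 8.36, 8.33 and 8.35 in wildtype (log2). Tumours lay below wildtype with no overlap, and SufuKO overlapped both. The fall in tumours against wildtype was small, 1.18-fold (log2 difference -0.24 ± 0.07, SE, limma adjusted p = 0.0171). It did not pass without tumour replicate 2 (limma adjusted p = 0.0720) or without wildtype replicate 1 (adjusted p = 0.0523). The log2 difference was -0.11 in SufuKO against wildtype (95% confidence interval -0.27 to 0.05, limma adjusted p = 0.325) and -0.13 in tumours against SufuKO (-0.29 to 0.03, adjusted p = 0.237).

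**Figure D2:**
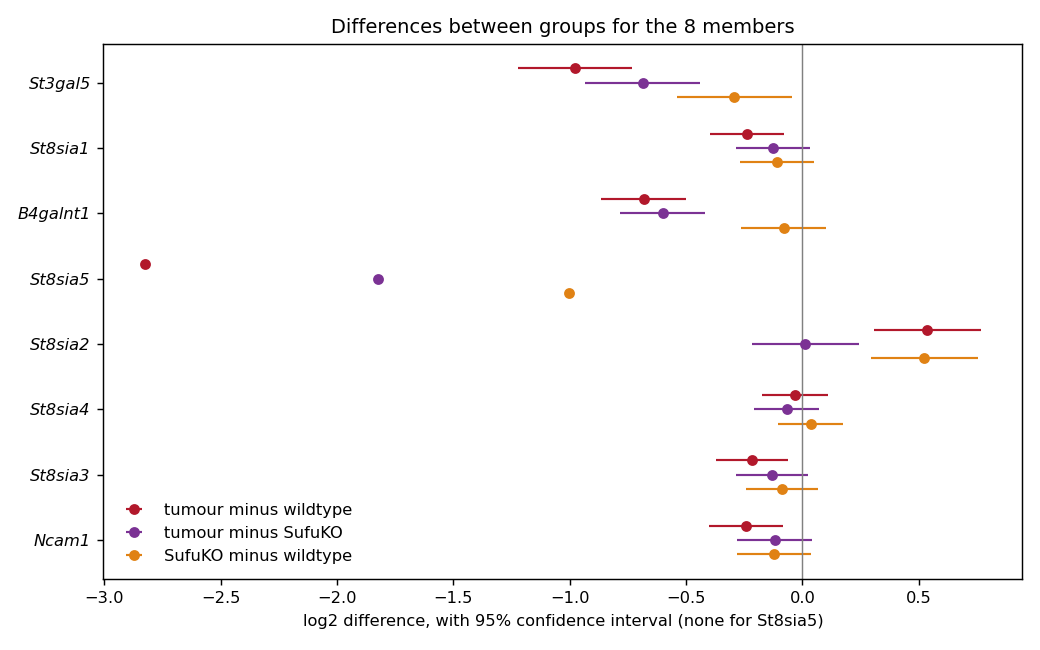
Log2 differences of the 8 members (points) with 95% confidence intervals from limma (bars, not drawn for St8sia5) for tumour minus wildtype, tumour minus SufuKO, and SufuKO minus wildtype. The intervals of St3gal5 lie below 0 in all 3 comparisons, those of B4galnt1 lie below 0 in both comparisons of the tumours, and those of St8sia2 lie above 0 against wildtype in both mutants.

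Of the polysialyltransferases, St8sia2 was higher in both mutants and St8sia4 passed in no comparison. St8sia2 read 7.54, 7.40 and 7.47 in the tumours, 7.56, 7.33 and 7.47 in SufuKO, and 7.19, 6.83 and 6.78 in wildtype (log2). Tumours and SufuKO overlapped, and both lay above all wildtype arrays, of which replicate 1 was the highest. The gene rose 1.45-fold in tumours against wildtype (log2 difference 0.54 ± 0.10, SE, limma adjusted p = 0.000951) and 1.44-fold in SufuKO (0.52 ± 0.10, adjusted p = 0.00308). Between tumours and SufuKO the log2 difference was 0.01 (95% confidence interval -0.22 to 0.24, limma adjusted p = 0.955).

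St8sia4 was the dimmest member, with a mean level above 36.6% of all genes. It read 6.29, 6.39 and 6.34 in the tumours, 6.35, 6.40 and 6.47 in SufuKO, and 6.42, 6.35 and 6.34 in wildtype (log2), and all groups overlapped. Its log2 difference from wildtype was -0.03 in the tumours (95% confidence interval -0.17 to 0.11, limma adjusted p = 0.750) and 0.04 in SufuKO (-0.10 to 0.18, adjusted p = 0.756). Between tumours and SufuKO it was -0.07 (95% confidence interval -0.21 to 0.07, limma adjusted p = 0.520). The deposited values carry no detection calls.

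Set against each other within each array, the St8sia2 minus St8sia4 log2 value was 1.01 to 1.25 in the tumours, 0.93 to 1.21 in SufuKO and 0.44 to 0.77 in wildtype. These are values of different probe sets, so only their change between groups can be read. The change was 0.57 in tumours against wildtype and 0.49 in SufuKO against wildtype, each with an exact 2-sided permutation p = 0.10, the smallest that 3 against 3 arrays allow. Between tumours and SufuKO the change was 0.08 (exact permutation p = 0.50).

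Ncam1, the main carrier of polysialic acid, was the brightest member. It read 10.79, 10.79 and 10.97 in the tumours, 10.94, 11.06 and 10.91 in SufuKO, and 11.11, 11.08 and 11.08 in wildtype (log2). Tumours and SufuKO overlapped, and both lay below wildtype, SufuKO by a gap of 0.02. It fell 1.18-fold in tumours against wildtype (log2 difference -0.24 ± 0.07, SE, limma adjusted p = 0.0156). That call was lost without tumour replicate 1 (limma adjusted p = 0.0647), without tumour replicate 2 (adjusted p = 0.0644) and after quantile normalization, which gave -0.13 (adjusted p = 0.200). In SufuKO against wildtype the log2 difference was -0.12 (95% confidence interval -0.28 to 0.04, limma adjusted p = 0.267), and in tumours against SufuKO it was -0.12 (-0.28 to 0.04, adjusted p = 0.272).

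St8sia3, which makes short sialic acid chains, read 8.65, 8.68 and 8.83 in the tumours, 8.87, 8.85 and 8.83 in SufuKO, and 8.98, 8.84 and 8.99 in wildtype (log2). The highest tumour and the lowest wildtype array were 0.01 apart. It fell 1.16-fold in tumours against wildtype (log2 difference -0.22 ± 0.07, SE, limma adjusted p = 0.0248). This call ended without tumour replicate 1, without tumour replicate 2, without wildtype replicate 1 or without wildtype replicate 3, with limma adjusted p values of 0.0972, 0.0829, 0.0834 and 0.0879. The log2 difference of St8sia3 in SufuKO against wildtype was -0.09 (95% confidence interval -0.24 to 0.07, limma adjusted p = 0.442), and in tumours against SufuKO it was -0.13 (-0.29 to 0.03, adjusted p = 0.217).

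The steps around the members were read from lists of the same pathways. Of 14 further genes of ganglioside and glycolipid synthesis, 8 fell, 1 rose and 5 did not pass in the tumours against wildtype, with a median log2 difference of -0.42. Among all genes 46.8% passed in that comparison, 24.7% as lower and 22.1% as higher. B4galt6, an enzyme that makes lactosylceramide, the substrate of St3gal5, fell 1.77-fold (limma adjusted p = 2.20e-06). St6galnac6, which adds sialic acid to complex gangliosides, fell 2.25-fold (adjusted p = 1.75e-07). Ugt8a, the enzyme of oligodendrocytes that makes the galactolipid of myelin, fell 4.16-fold (adjusted p = 1.52e-07), and the gene that rose was St6galnac5, a ganglioside sialyltransferase (1.32-fold, adjusted p = 0.00527).

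The same 14 genes had a median log2 difference of -0.17 in SufuKO against wildtype, where 25.4% of all genes passed and 13% were higher. Here 5 of the 14 were lower, 2 were higher and 7 did not pass. The 5 were Ugcg, the enzyme that puts glucose on ceramide (-0.20), B4galt6 (-0.30), St6galnac6 (-0.37), Ugt8a (-0.82) and Gal3st1, the sulfotransferase of myelin sulfatide (-0.28). St6galnac3 (0.28) and St6galnac5 (0.31), ganglioside sialyltransferases, were the 2 that rose. In tumours against SufuKO 8 of the 14 fell, where 29.7% of all genes passed and 17.5% were lower. The 1 that rose was B3gnt5, which starts another branch of glycolipids (0.43, limma adjusted p = 0.0243).

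Upstream, 4 of 10 tested ceramide synthesis genes fell in tumours against wildtype and 6 did not pass (median log2 difference -0.10). Among all genes 46.8% passed in either direction and 24.7% passed as lower. Degs1, the desaturase of the last step to ceramide, fell 2.04-fold (limma adjusted p = 9.11e-07), and the ceramide synthase genes Cers6 and Cers2 fell 1.49-fold (adjusted p = 0.000700) and 1.37-fold (adjusted p = 0.000826). The fourth was Cert1, which carries ceramide to the Golgi (-0.24). Degs1 (-0.59) and Cers2 (-0.37) also fell in SufuKO against wildtype, where 8 did not pass and 25.4% of all genes passed.

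Of 6 genes that supply sialic acid, 1 rose, 2 fell and 3 did not pass in tumours against wildtype (median log2 difference -0.10), near the share of all genes that passed. Nans, the sialic acid synthase, rose 1.34-fold in the tumours (limma adjusted p = 0.000649) and 1.35-fold in SufuKO (adjusted p = 0.00162), where it was the 1 gene of the 6 that passed. Gne, the enzyme that starts sialic acid synthesis, fell 1.21-fold in the tumours (limma adjusted p = 0.00382), and Slc17a5, the lysosomal sialic acid exporter, 1.17-fold (adjusted p = 0.0168).

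Among 7 other sialyltransferases, St6gal1, which caps glycoprotein chains with sialic acid, rose 2.91-fold in tumours against wildtype (limma adjusted p = 1.15e-07), 1.60-fold in tumours against SufuKO (adjusted p = 0.000277) and 1.82-fold in SufuKO against wildtype (adjusted p = 6.60e-05). In tumours against wildtype 3 of the 7 fell, namely St3gal6 (-0.54), St6gal2 (-0.45) and St3gal3 (-0.26), and 3 did not pass. Among all genes 46.8% passed there and 24.7% were lower. In SufuKO against wildtype St3gal6 (-0.54) and St6gal2 (-0.40) fell and 4 of the 7 did not pass, where 25.4% of all genes passed. Of 4 carriers of polysialic acid and relatives of Ncam1, Ncam2, its closest relative, fell 1.85-fold in the tumours (limma adjusted p = 2.95e-05) and 1.49-fold in SufuKO (adjusted p = 0.00264). Nrp2, a receptor that carries polysialic acid on immune cells, fell in SufuKO against wildtype (-0.28, adjusted p = 0.0194). In this list 3 of the 4 did not pass in the tumours and 2 did not in SufuKO.

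Breakdown genes went both ways. Of 12 tested, 4 fell, 1 rose and 7 did not pass in tumours against wildtype, with a median log2 difference of -0.05, again near the share of all genes that passed. Psap, the precursor of the saposins, and Gm2a, the ganglioside activator protein, fell 1.64-fold (limma adjusted p = 2.96e-06) and 1.62-fold (adjusted p = 2.14e-06), and Npl, which cleaves free sialic acid, rose 1.44-fold (adjusted p = 5.96e-05). Arsa and Neu1, lysosomal enzymes, were the other two that fell (-0.51 and -0.37). In SufuKO Gm2a (-0.42), Psap (-0.29) and the sialidase gene Neu4 (-0.38) fell and 9 did not pass. Of 8 sialic acid binding receptors, Mag, the myelin protein that binds gangliosides of axons, fell 6.05-fold in the tumours (limma adjusted p = 4.73e-08) and 1.80-fold in SufuKO (adjusted p = 0.00108). Siglech, a microglial receptor, fell in the tumours (-0.28) and Cd33, of myeloid cells, rose (0.23). The other 5 receptors did not pass in the tumours, where 46.8% of all genes passed. In SufuKO 7 of the 8 did not pass, where 25.4% of all genes passed.

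**Figure D3:**
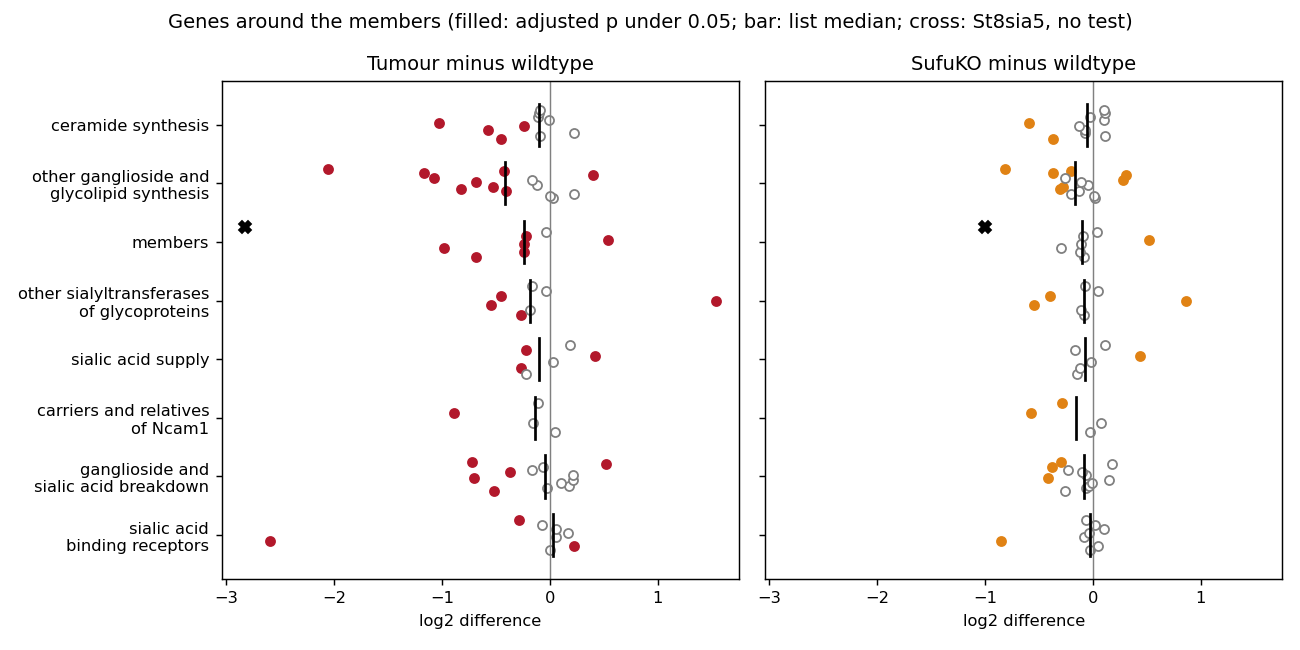
Log2 differences of single genes (points) in 8 lists for tumour minus wildtype (left) and SufuKO minus wildtype (right). Filled points have a limma adjusted p under 0.05, open points do not, and the cross is St8sia5 with no test. The vertical bar is the list's median, which for the members includes St8sia5. Most filled points of synthesis genes lie below 0 in the tumours, where St8sia5 and Ugt8a stand furthest left in their lists, and St6gal1 stands furthest right.

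Cell type markers moved beside the members, and in RNA of whole tissue fewer cells of a type and less RNA per cell cannot be told apart. Among all genes 46.8% passed in tumours and 25.4% in SufuKO against wildtype. All 8 markers of mature granule neurons were lower, with a median log2 difference of -2.09 in tumours and -0.77 in SufuKO against wildtype. Their mean level was 8.98 to 9.69 on tumour arrays, 10.50 to 10.55 on SufuKO arrays and 11.24 to 11.44 on wildtype arrays (log2). Tumour replicate 3 had the highest value of the tumours, as it had for St8sia5, St3gal5 and B4galnt1. This is not particular to granule neurons. Replicate 3 was also the highest tumour for markers of mature oligodendrocytes (8.48), GABAergic interneurons (7.63) and Bergmann glia and astrocytes (10.26), among other lists. For Purkinje cell markers it was not (8.93 against 9.02 on replicate 2). Log2 differences of single markers of mature granule neurons ran from -2.71 to -1.36 in the tumours and from -1.19 to -0.46 in SufuKO. The St8sia5 difference lay below all 8 in the tumours and within their range in SufuKO. All 7 markers of mature oligodendrocytes were lower too, with a mean level of 8.23 to 8.48 in tumours, 9.49 to 9.93 in SufuKO and 10.25 to 10.52 in wildtype. The part of any of these cell types in the levels of the members was not tested.

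Markers of earlier granule cells ran the other way. All 8 granule neuron progenitor markers were higher in both mutants, with a mean level of 10.21 to 10.63 in tumours, 9.45 to 9.66 in SufuKO and 7.50 to 7.87 in wildtype (log2). Of 8 markers of newborn granule neurons 7 were higher in each mutant and Neurod1 did not pass. Their mean level was 10.33 to 10.36 in tumours, 10.34 to 10.40 in SufuKO and 9.29 to 9.53 in wildtype, with wildtype replicate 1 the highest of its group in this list, in the progenitor list and in St8sia2. Tumour and SufuKO arrays overlapped for St8sia2 and for the mean of the newborn list, and did not for the mean of the progenitor list. Single newborn markers differed in tumours against SufuKO, with Nhlh1 and Nhlh2 higher, Cntn2 and Sema6a lower and 4 that did not pass. The part of these cells in the St8sia2 values was not tested.

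Of 6 Purkinje cell markers 5 fell in each mutant, while Foxp2 rose in the tumours (log2 difference 1.54, 2.90-fold) and did not pass in SufuKO. Their mean level was 8.82 to 9.02 in tumours, 9.69 to 9.79 in SufuKO and 10.17 to 10.28 in wildtype (log2). All 6 GABAergic interneuron markers fell in the tumours and 5 in SufuKO, with a mean level of 7.55 to 7.63 in tumours, 8.33 to 8.39 in SufuKO and 9.06 to 9.17 in wildtype. Of 8 markers of Bergmann glia and astrocytes 6 fell in the tumours and 7 in SufuKO, with a mean level of 9.88 to 10.26 in tumours, 10.23 to 10.29 in SufuKO and 10.90 to 10.96 in wildtype.

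**Figure D4:**
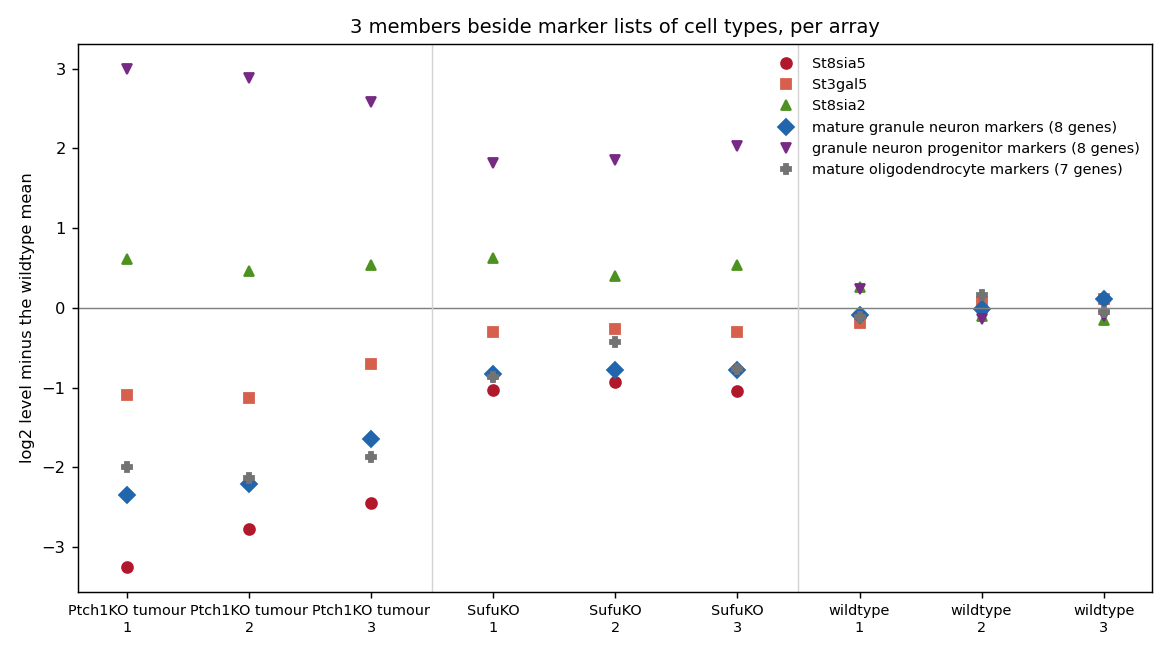
Log2 level minus the wildtype mean on each array, for St8sia5, St3gal5 and St8sia2 and for the mean of 3 cell type marker lists. Each point is an array, with tumours at the left, SufuKO in the middle and wildtype at the right. St8sia5 lies below the mature granule neuron markers on each tumour array, and the progenitor markers lie above all other series on the mutant arrays.

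The genes whose levels were most like each member over the 9 arrays were taken by Pearson correlation, given with no test because the arrays fall into 3 groups and all genes share them. St8sia5 was closest to Me3, a mitochondrial malic enzyme (r = 0.999), and Cdkl1, a kinase gene (r = 0.999). St3gal5 was closest to Ak4, an adenylate kinase (r = 0.993), and Dbndd2 (r = 0.993). B4galnt1 was closest to Porcn, which acylates Wnt proteins (r = 0.998), and Rbfox3, the splicing factor used as the neuronal marker NeuN (r = 0.996). St8sia2 was closest to Mdm4, an inhibitor of p53 (r = 0.983), and Cttnbp2nl (r = 0.983). Mkx and Sult2b1 followed St8sia1 (r = 0.982 and 0.962), Stk38l and Klhdc1 followed St8sia3 (r = 0.972 each), and Trpc5 and Enpp6 followed Ncam1 (r = 0.974 and 0.971). St8sia4 had the loosest likeness, with Ift57 (r = 0.914) and Lrrc41 (r = 0.892).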

How the data were processed

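The authors deposited log2 expression values of 35556 probe sets on 9 arrays. Their range marked them as log2 (array medians 6.72 to 6.79). How they were background-corrected and normalized is not given in the sources used here. Per the labels' protocols, total RNA of dissected frozen tissue was biotin-labelled and hybridised by the manufacturer's procedure. Groups and replicate numbers came from the sample titles, and 0 columns were left unused.

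Genes were named with the platform annotation, updated by gene identifier through RefSeq (21698 of 21789 single-gene probe sets matched). Probe sets with several genes (1621) or no listed gene (12146) were left out. For genes with several probe sets the highest mean stood for the gene. Genes above the 25th percentile on at least 3 arrays were tested (16323 of 19938).

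Limma 3.58.1 in R 4.3.3 fitted 1 mean per group to all 9 arrays, with empirical Bayes variances and 2-sided p-values adjusted by Benjamini-Hochberg over all tested genes. Folds are log2 differences taken back to the linear scale. The number of arrays limits the precision.

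The members, the lists and the tests were chosen with earlier results of these data known. Named beside the members are, per pathway list, the 3 genes with the smallest p in tumours against wildtype, those behind a count of 5 or fewer, and for each member the 2 genes most correlated with it. Alternatives changed the filter, the probe set rule, the normalization, the prior, array weights, a sex covariate, the arrays in the fit and a replicate block, and left out each array in turn.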

Additional observations from a re-analysis of the deposited data

How the results depend on the processing

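Of the 21 log2 differences of the 7 members other than St8sia5, 12 kept their direction and their side of the threshold under all alternatives run, up to 19 each. These include every value of B4galnt1, St8sia2 against wildtype in both mutants, and St3gal5 where the tumours were compared. St8sia5 ran from -3.01 to -2.61 in tumours against wildtype, the lower end without tumour replicate 3, and from -1.05 to -0.93 in SufuKO against wildtype. Of the 7 members other than St8sia5, 6 passed in tumours against wildtype, where 46.8% of all genes passed. That count ran from 3 to 6 when 1 array was left out, with the 3 without tumour replicate 2. In SufuKO against wildtype it was 1 and ran from 1 to 2 (25.4% of all genes). In tumours against SufuKO it was 2 each time (29.7% of all genes). With array weights estimated gene by gene, 4 members passed in SufuKO against wildtype, with St8sia1 (limma adjusted p = 0.0235) and St3gal5 (adjusted p = 0.0329) added, and 5 in tumours against SufuKO, with St8sia3 (adjusted p = 0.0464) and Ncam1 (adjusted p = 0.00919) added. The cause was not tested. A fit of only the 2 groups compared added St3gal5 in SufuKO (adjusted p = 0.0337). Values near 0 changed sign: St8sia4 in tumours against wildtype was 0.0246 with the sex covariate, and St8sia2 in tumours against SufuKO ran from -0.0482 to 0.0653 when 1 array was left out, below 0 without SufuKO replicate 2 and without tumour replicate 1. The sex covariate changed no call of a member. Over all genes the calls ran from 3049 to 6122 in SufuKO against wildtype, with the most under array weights, against 4150 in the fit reported. Same-numbered arrays of different groups deviated from their group means with correlations from -0.31 to 0.35, and differently numbered arrays from -0.35 to 0.40. The labels do not say that the numbers pair samples, and with 3 arrays a group these correlations cannot settle it. With the replicate number as a block, 1, 6 and 2 of the 7 members and 3989, 7520 and 4626 genes passed in SufuKO against wildtype, tumours against wildtype and tumours against SufuKO. No call of these 7 members changed. St8sia4 gave no value under the filter at the array median. No detection calls came with the values, so whether dim genes such as St8sia4 lie above background was not tested.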

Other observations

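Markers of other cells that carry sialic acid chains or their receptors were read in the same fit, where 46.8% of all genes passed in tumours and 25.4% in SufuKO against wildtype. Of 6 oligodendrocyte precursor markers 3 rose in tumours against wildtype, namely Pdgfra, a growth factor receptor (5.15-fold, limma adjusted p = 5.26e-09), the transcription factor gene Olig2 (1.43-fold, adjusted p = 0.00403) and the proteoglycan gene Cspg4 (1.27-fold, adjusted p = 0.00801). Sox10, a factor of the whole lineage, fell (1.24-fold, adjusted p = 0.0165). Pdgfra also rose in SufuKO against wildtype (2.20-fold, limma adjusted p = 7.12e-06), while Olig1 (-0.52) and Sox10 (-0.49) fell on the log2 scale.

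Of 6 microglia markers 3 rose in tumours against wildtype, the complement genes C1qb (2.35-fold, limma adjusted p = 1.24e-06) and C1qa (1.48-fold, adjusted p = 0.00460) and the chemokine receptor gene Cx3cr1 (1.43-fold, adjusted p = 0.000128). In SufuKO C1qb rose 1.44-fold (adjusted p = 0.00318). All 6 endothelial and pericyte markers were lower in tumours than in wildtype (median log2 difference -0.38), as were 4 of 6 in SufuKO (median -0.31).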
